A study of Mus musculus with 20 samples.

Results

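CrxRip/Rip retina was set against Crx-/- retina at postnatal day 2 (P2), to compare the product of a mutant Crx allele with loss of Crx function in mice. 4 of the 20 samples of the series entered the comparison, 2 CrxRip/Rip and 2 Crx-/-, and every one of the 566 genes in the deposited P2 table was followed. The members are those samples by genotype and age and those genes by their place in the table. No measured value entered that rule here, though earlier results of these data were known. The genes of the table had themselves been selected by the authors on measured change. CrxRip/Rip is homozygous for CrxRip, a dominant mutant form of Crx, the cone-rod homeobox gene, and Crx-/- is the homozygous null. CrxRip/+ heterozygotes, Nrl-/- and wild type were sequenced beside them, all on a C57BL/6J background, and all 5 genotypes were also taken at P21. Each sample was RNA of whole retina pooled from 2 retinas, so that a change of RNA per cell and a change in the number of cells of a type cannot be told apart. The labels do not say whether the 2 samples of a genotype came from separate litters. The p-values come from a fit to all 10 samples of an age. They measure the spread between samples of a genotype, taken over the 5 genotypes, which may be technical.

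CRX is a homeodomain factor made by photoreceptor precursors once they leave the cell cycle, and it activates genes of both rods and cones together with partner factors. NRL directs precursors to the rod fate and turns on Nr2e3, whose product represses cone genes in rods, while thyroid hormone receptor beta and retinoid X receptor gamma act in cones. At P2 mouse cones have already been born and rods are still being produced, so opsins and other genes of the outer segment, the light-sensing cilium of the photoreceptor, are at an early stage of expression.

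Values were FPKM, in which fragments are scaled by transcript length and by the mapped fragments of the library, rounded to 1 decimal, and differences are CrxRip/Rip minus Crx-/- on the log2(FPKM + 1) scale, which understates changes of genes below a few FPKM. A gene was called at a limma p under 0.05 after Benjamini-Hochberg adjustment over the table. Depth is unknown. Summed FPKM of the table was 4542.2 and 4552.4 in the CrxRip/Rip samples, 5456.0 and 5508.0 in the Crx-/- samples, and between 4168.3 and 5777.3 in the others. The authors' table is limited to genes past their threshold in some comparison, and shares of called genes therefore describe selected genes. Crx itself had no row at P2 and the labels could not be checked against it. At P21 the Crx transcript was at 167.9 and 171.4 FPKM in the Crx-/- samples and at 350.7 and 343.9 in wild type, and the part of the transcript that these values cover was not analysed here.

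For most photoreceptor genes that the table held, CrxRip/Rip retina stood below Crx-/- retina, and it stood above for a mixed group of other genes. Of the 566 genes, 234 (41.3%) were called, 131 (23.1%) lower and 103 (18.2%) higher in CrxRip/Rip, and the median difference over all genes was 0.06. The 2 samples of one genotype lay wholly above or below those of the other for 71.9% of the genes. The falls were the larger changes. A difference of at least 1 was reached by 53 of the called falls and 12 of the called rises, and one of at least 2 by 8 falls and 1 rise. Without the second Crx-/- sample 136 genes were called, 90 lower and 46 higher, and with these 2 genotypes alone in the fit 133 were called, 91 lower and 42 higher. Higher calls were also 63 without the first CrxRip/Rip sample and 66 without the first Crx-/- sample. In all 5 fits, with every sample and without each of the 4 in turn, 120 genes were called, 82 lower and 38 higher.

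**Figure D1:**
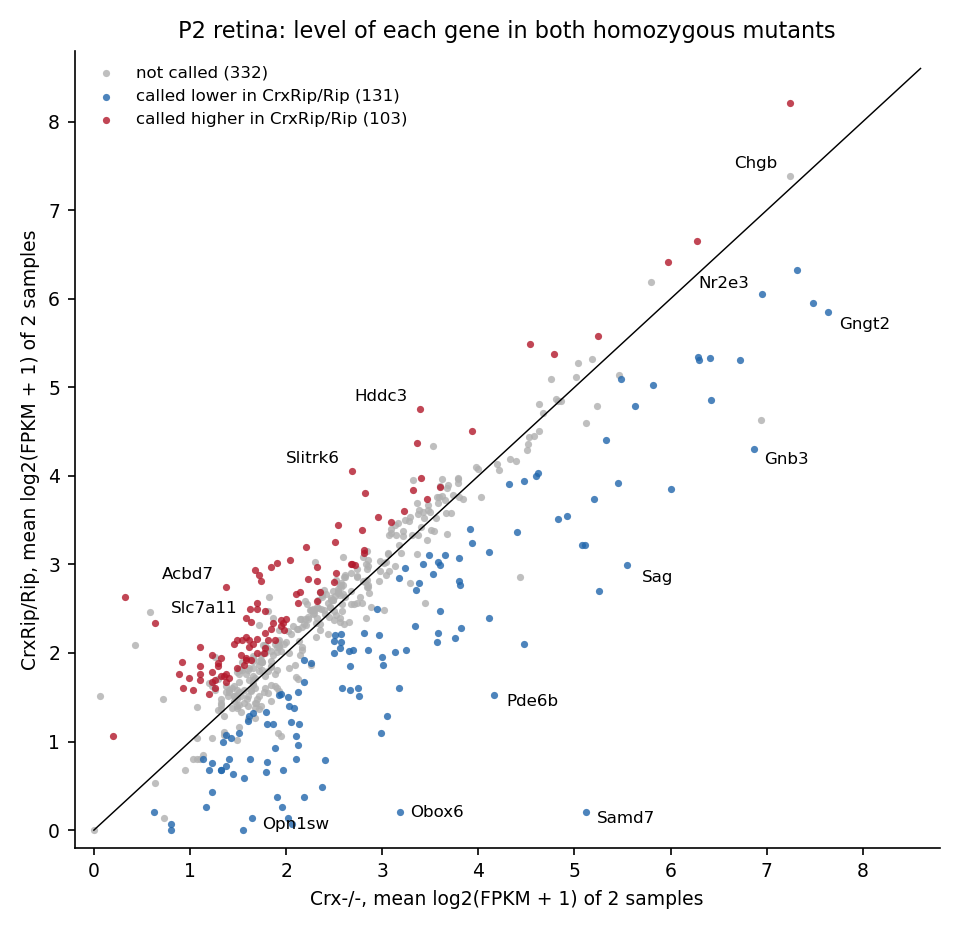
Level of each of the 566 genes in Crx-/- (x axis) and CrxRip/Rip (y axis) at P2, each as the mean log2(FPKM + 1) of 2 samples, with the line of equal level. The 131 genes called lower lie far below the line in several cases (Samd7, Obox6, Gnb3), while the 103 called higher stay closer to it.

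Genes called lower were, at the median, near wild type in Crx-/- and below it in CrxRip/Rip. They had a median difference of -0.84 between CrxRip/Rip and Crx-/-, and against the same wild-type samples their medians were -0.75 in CrxRip/Rip and 0.14 in Crx-/-. CrxRip/Rip alone was called, lower than wild type, in 56 of these 131, and Crx-/- alone, higher than wild type, in 23. Both mutants were lower in 25 and higher in 2, neither was called in 21, and 4 were called in opposite directions. Under a median-of-ratios scaling of the comparisons with wild type the 56 became 50 and the 23 became 31. For the genes called higher the median was 0.54, with 0.14 against wild type in CrxRip/Rip and -0.33 in Crx-/-. Against wild type 153 genes (27.0%) were called in CrxRip/Rip, 120 of them lower (21.2%) and 33 higher (5.83%), and 169 (29.9%) in Crx-/-, 117 lower (20.7%) and 52 higher (9.19%). The split for Crx-/- turned to 57 lower and 86 higher under a median-of-ratios scaling, and without any 1 of its 2 samples or the 2 wild-type samples 72 to 92 genes were called, fewest without the second Crx-/- sample. The 3 comparisons share samples, and each median is a description. The 7 lists of photoreceptor genes hold 182 genes, of which 54 were in the table. Of these 54, 42 were called lower, 1 higher and 11 not called, with a median of -0.96. Among the other 512 genes 89 were called lower and 102 higher, with a median of 0.10.

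Most transcriptional regulators of photoreceptors that the table held were lower in CrxRip/Rip, with Samd7 the most changed gene of the table. Of the 33 genes of the list 7 were in the table, of which 6 were called lower and 1 higher. Samd7, which encodes a SAM domain repressor of photoreceptors, was at 0.1 and 0.2 FPKM in the CrxRip/Rip samples and at 29.3 and 38.9 in the Crx-/- samples. It was at 20.7 and 27.0 in wild type, so Crx-/- was on the wild-type side and CrxRip/Rip near 0, with 4.4 and 3.8 in the heterozygotes. The difference was -4.92 (SE 0.17, adjusted p = 1.4e-06).

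Nrl was at 36.5 and 43.2 FPKM in CrxRip/Rip and at 73.0 and 81.6 in Crx-/-, a ratio of means of 1.94 in favour of Crx-/- (difference -0.94, SE 0.14, adjusted p = 0.0010). Nr2e3, the nuclear receptor downstream of NRL, was at 61.4 and 70.2 in CrxRip/Rip and at 112.4 and 133.2 in Crx-/- (difference -0.89, SE 0.17, adjusted p = 0.0038). Both rod regulators were therefore expressed in CrxRip/Rip at P2. Their levels did not overlap with Crx-/-, as was so in either direction for 71.9% of all genes of the table. Wild type was at 69.4 and 81.0 for Nrl and at 120.3 and 143.8 for Nr2e3, and neither gene was called between Crx-/- and wild type.

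The cone-associated receptors fell as well. Rxrg was at 3.2 and 2.6 FPKM in CrxRip/Rip against 6.5 and 7.5 in Crx-/- (difference -1.04, adjusted p = 0.00020). Thrb was at 2.1 and 2.3 against 3.2 and 3.9 (difference -0.50, adjusted p = 0.0032), and with these 2 genotypes alone in the fit it missed the threshold at 0.054. Sall3, a zinc finger factor of cone and horizontal cell development, was at 0.6 and 0.5 against 1.4 and 2.1 (difference -0.82). The exception was Ankrd33, an ankyrin repeat protein that represses CRX-activated genes. It was at 2.6 and 2.2 in CrxRip/Rip and at 1.2 and 1.1 in Crx-/- (difference 0.66, SE 0.09, adjusted p = 0.00060), both under the 4.3 and 4.1 of wild type.

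**Figure D2:**
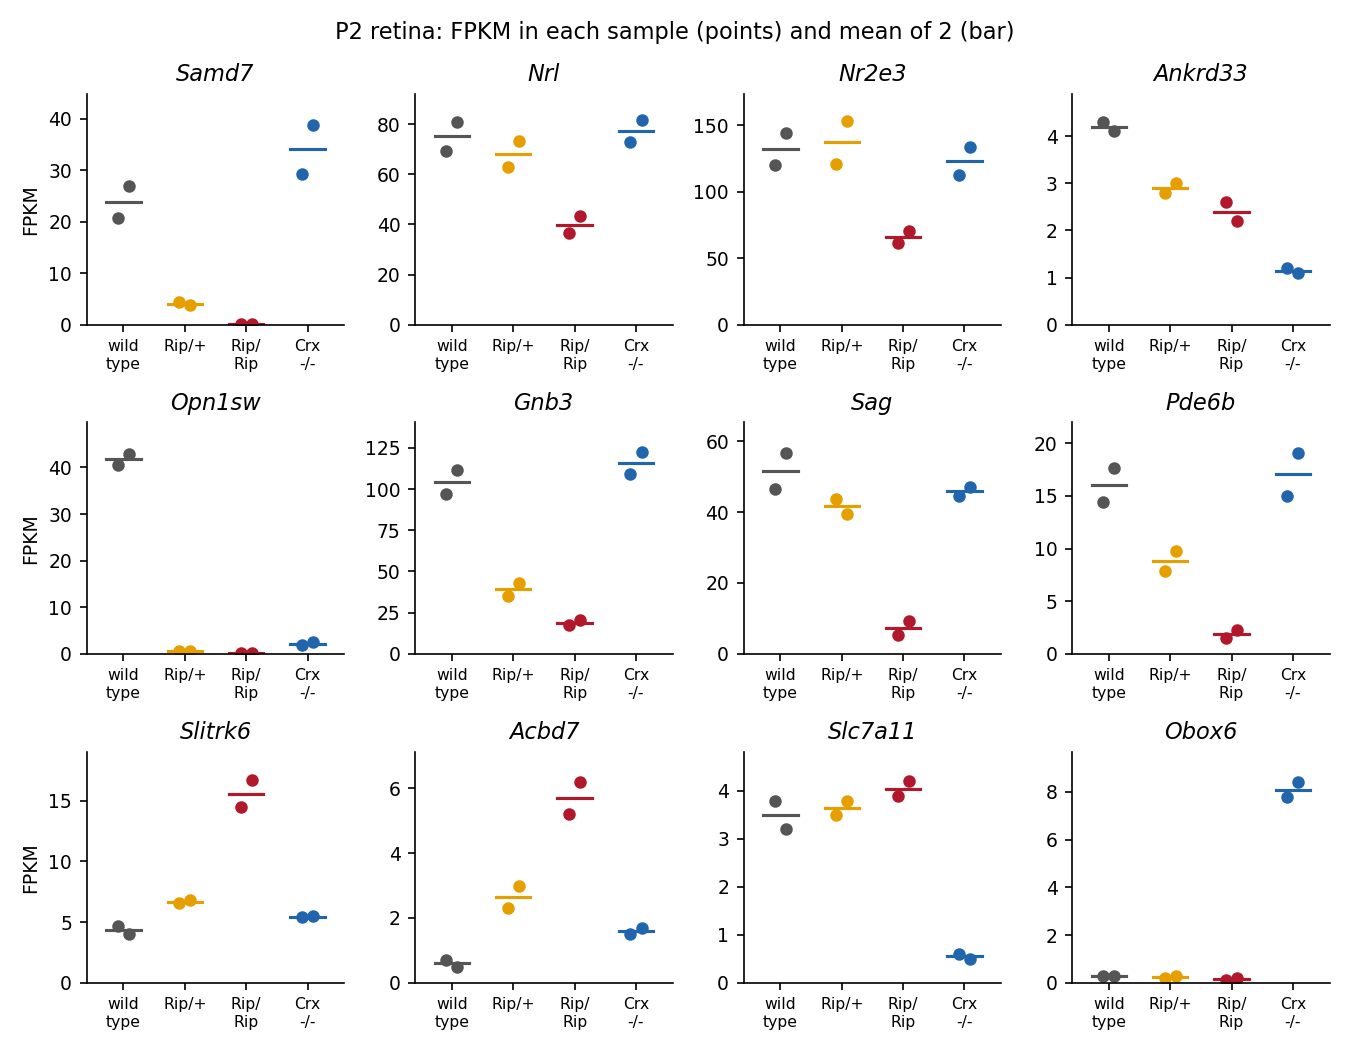
FPKM of 12 genes at P2 in each sample (points) with the mean of 2 (bar), for wild type, CrxRip/+, CrxRip/Rip and Crx-/-. Each panel has its own scale from 0. For 7 of them (Samd7, Nrl, Nr2e3, Opn1sw, Gnb3, Sag, Pde6b) both CrxRip/Rip samples lie below both Crx-/- samples, Obox6 is high in Crx-/- alone, and Ankrd33, Slitrk6, Acbd7 and Slc7a11 are higher in CrxRip/Rip.

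CRX and the related OTX factors bind a short core written TAATCC, and promoters of 3 genes that fell and 1 that was not called are shown to place that core. The sequences are the 250 bases before the first listed RefSeq start (GRCm38.p6, plus strand), 5′ to 3′, with the match in capitals; GGATTA is the same core on the opposite strand. They lie at chr3:30746043-30746292 (Samd7), chr1:87803430-87803679 (Sag, rod arrestin), chr3:108092816-108093065 (Gnat2, the cone transducin alpha subunit) and chr14:37054580-37054829 (Lrit1, a synaptic membrane protein of photoreceptors).
Samd7: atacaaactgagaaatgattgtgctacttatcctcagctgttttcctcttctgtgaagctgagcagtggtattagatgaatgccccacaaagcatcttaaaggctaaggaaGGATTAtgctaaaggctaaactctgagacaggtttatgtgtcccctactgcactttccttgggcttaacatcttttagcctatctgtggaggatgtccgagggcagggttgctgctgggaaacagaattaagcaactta
Sag: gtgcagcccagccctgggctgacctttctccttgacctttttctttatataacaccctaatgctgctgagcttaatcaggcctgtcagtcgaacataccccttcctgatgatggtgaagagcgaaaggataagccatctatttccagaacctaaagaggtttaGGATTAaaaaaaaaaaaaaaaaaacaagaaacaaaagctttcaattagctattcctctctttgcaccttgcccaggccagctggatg
Gnat2: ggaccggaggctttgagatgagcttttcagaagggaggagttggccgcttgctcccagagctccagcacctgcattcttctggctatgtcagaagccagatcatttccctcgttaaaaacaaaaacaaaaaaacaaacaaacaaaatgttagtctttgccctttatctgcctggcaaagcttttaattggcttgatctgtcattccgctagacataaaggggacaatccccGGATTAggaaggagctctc
Lrit1: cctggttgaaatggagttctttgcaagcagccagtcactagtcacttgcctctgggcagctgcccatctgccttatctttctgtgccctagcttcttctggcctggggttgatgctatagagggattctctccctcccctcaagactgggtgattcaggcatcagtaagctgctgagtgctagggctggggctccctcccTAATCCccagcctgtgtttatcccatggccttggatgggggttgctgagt
The first base of the match was at -139 in Samd7, -87 in Sag, -19 in Gnat2 and -50 in Lrit1, counted from the start. TAATCC on either strand was in the upstream 250 bases of 6.38% of 27025 RefSeq genes. Of the genes called lower, 18 of the 103 with a promoter entry held it (17.5%), as did 22 of 263 not called (8.37%) and 3 of 76 called higher (3.95%), which were Cox6b2, L3hypdh and Hddc3. Of the 18, 11 were in the photoreceptor lists, and outside those lists 7 of 73 called falls (9.59%) held it. A match is a string of letters and was not tested as a binding site.

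Cone genes of the table were called lower in CrxRip/Rip in all but 1 case, both where Crx-/- was near wild type and where it was far below. Of 24 listed cone genes 12 were in the table, of which 11 were called lower and 1 was not called, with a list median of -1.80. Against wild type the same list had medians of -1.94 in CrxRip/Rip and -0.20 in Crx-/-. The cone transducin beta subunit Gnb3 was at 17.2 and 20.3 FPKM in CrxRip/Rip and at 109.2 and 122.4 in Crx-/-, a ratio of means of 6.18 in favour of Crx-/- (difference -2.57, SE 0.15, adjusted p = 1.6e-05). Its partner Gngt2, the gamma subunit, was at 50.4 and 63.4 against 178.9 and 220.5 (difference -1.79), and the alpha subunit Gnat2 was at 1.4 and 0.9 against 6.7 and 7.2 (difference -1.90). For all 3 transducin subunits of cones both CrxRip/Rip samples were below both Crx-/- samples, in a table where 71.9% of genes had no overlap in either direction.

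The cyclic nucleotide gated channel subunits of cones followed. Cnga3 was at 0.1 and 0.1 FPKM against 3.0 and 3.1 in Crx-/- (difference -1.88), where wild type was also at 3.0 and 3.1. Cngb3 was at 1.4 and 1.5 against 7.4 and 7.2 (difference -1.76). Of the cone phosphodiesterase, the catalytic Pde6c was at 0.3 and 0.3 against 3.2 and 3.9 (difference -1.80), and the inhibitory Pde6h was listed at 0 in both CrxRip/Rip samples against 1.7 and 2.2 (difference -1.56). Pde6c was called in opposite directions against wild type, 2.1 and 2.3 FPKM, with differences of -1.30 in CrxRip/Rip and 0.50 in Crx-/-.

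Short-wavelength opsin, Opn1sw, was low in both mutants. It was at 0.1 and 0.1 FPKM in CrxRip/Rip and at 1.8 and 2.5 in Crx-/-, with 40.6 and 43.0 in wild type, and the difference between the mutants was -1.51 (adjusted p = 3.0e-05). Ccdc136 was at 13.0 and 14.0 against 57.3 and 69.6 (difference -2.15), Fam19a3 (now Tafa3), a secreted protein, at 0.0 and 0.1 against 2.8 and 3.6 (difference -2.0), and the proton channel Otop3 at 1.7 and 2.0 against 5.3 and 6.3 (difference -1.25). These 11 cone genes also passed in each of the 4 fits without 1 sample.

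Of 21 listed rod genes 9 were in the table, and 8 of these 9 were called lower, with a median of -1.53. The list medians against wild type were -2.56 in CrxRip/Rip and -0.78 in Crx-/-. The catalytic rod phosphodiesterase subunit Pde6b was at 1.5 and 2.3 FPKM in CrxRip/Rip and at 15.0 and 19.1 in Crx-/-, with 14.4 and 17.7 in wild type (difference -2.64, SE 0.18, adjusted p = 2.8e-05). Sag was at 5.2 and 9.2 against 44.6 and 47.2 (difference -2.56), and the inhibitory subunit Pde6g at 2.9 and 3.7 against 19.5 and 23.1 (difference -2.38). For Pde6b and Sag the Crx-/- samples were not called against wild type, whereas Pde6g was lower there too, by 0.67.

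Further rod genes were lower as well. The calcium sensor recoverin, Rcvrn, was at 0.2 and 0.4 FPKM in CrxRip/Rip against 2.6 and 2.9 in Crx-/- (difference -1.53), the rod transducin gamma subunit Gngt1 at 2.8 and 4.8 against 9.8 and 12.2 (difference -1.35), and Reep6, a membrane protein of the rod secretory pathway, at 1.8 and 2.1 against 3.1 and 3.6 (difference -0.56). Cnga1, the rod channel subunit, was listed at 0 in both CrxRip/Rip samples and at 0.6 and 0.9 in Crx-/- (difference -0.80, adjusted p = 0.029), and it missed the threshold in all 4 fits without 1 sample, at 0.060 to 0.15. Nxnl1, a thioredoxin-like protein of rods, was at 0.5 and 0.7 against 0.7 and 1.2, touching at 0.7, with a 95% interval of -0.64 to 0.09 and a wild type of 4.3 and 3.3.

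**Figure D3:**
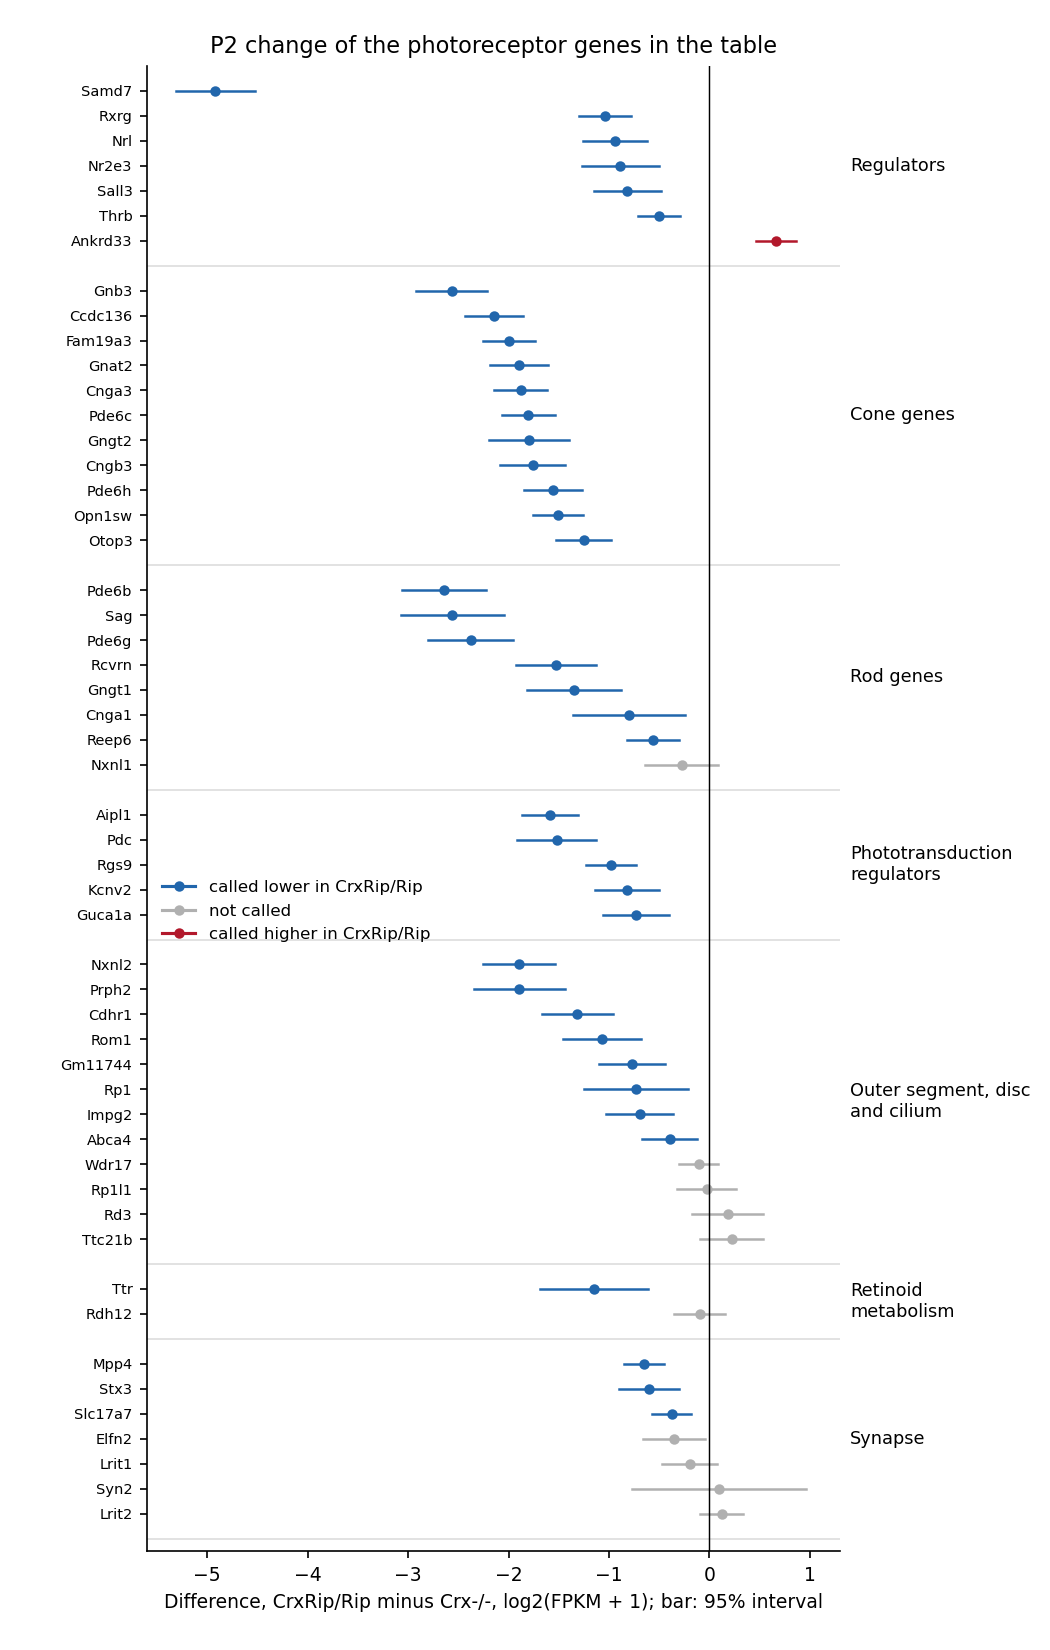
Difference at P2 between CrxRip/Rip and Crx-/- on the log2(FPKM + 1) scale (points) with its 95% interval (bars) for 52 of the 54 photoreceptor genes of the table, by list; a gene of more than 1 list is drawn once. The cone and rod genes lie almost entirely left of 0, Ankrd33 alone is called higher, and the genes not called are mostly of the outer segment and synapse lists.

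Regulators of phototransduction had 7 genes in the table, of which 6 were called lower and 1 was not called, with a median of -0.98; Rcvrn is shared with the rod list. Phosducin, Pdc, which binds transducin beta and gamma, was at 54.1 and 68.9 FPKM against 163.4 and 191.9 in Crx-/- (difference -1.52, adjusted p = 0.00024). Aipl1, the chaperone of phosphodiesterase, was at 3.2 and 3.8 against 11.6 and 13.5 (difference -1.59). Rgs9, which speeds transducin shut-off, was at 5.9 and 6.2 against 11.7 and 14.2 (difference -0.98). The potassium channel subunit Kcnv2 was at 0.6 and 0.9 against 1.8 and 2.4 (difference -0.82), and Guca1a, an activator of guanylate cyclase, at 0.0 and 0.1 against 0.9 and 0.6 (difference -0.73). No CrxRip/Rip value of these 5 reached the Crx-/- range, where 71.9% of all genes of the table had no overlap in either direction.

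Genes of the outer segment, its discs and the cilium were divided, with 8 of 12 called lower and 4 not called (median -0.71). The disc rim proteins led them. Prph2 was at 7.0 and 9.8 FPKM against 29.7 and 37.8 (difference -1.89, adjusted p = 0.00017), and Rom1 at 37.1 and 41.8 against 78.0 and 90.3 (difference -1.07). Nxnl2 was at 0.3 and 0.5 against 4.3 and 4.1 (difference -1.90), the protocadherin Cdhr1 at 10.7 and 10.1 against 24.4 and 30.8 (difference -1.32), and Gm11744 (now Prcd), a disc protein, at 3.3 and 3.9 against 6.4 and 7.3 (difference -0.77).

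3 smaller falls of that list depended on single samples. Rp1, a microtubule protein of the axoneme, was at 5.7 and 9.5 FPKM against 11.5 and 14.5 (difference -0.73, adjusted p = 0.032). It was -0.41 (0.15) without the first CrxRip/Rip sample, -0.89 (0.056) without the first Crx-/- sample and -0.58 (0.19) without the second. The retinoid transporter Abca4 was at 1.6 and 2.2 against 2.7 and 2.9 (difference -0.40, adjusted p = 0.029), with -0.25 (0.14), -0.44 (0.075) and -0.36 (0.14) in the same 3 fits. Impg2, of the matrix between photoreceptors, was at 7.4 and 9.7 against 13.6 and 15.1 (difference -0.69, adjusted p = 0.0066) and at -0.62 (0.052) without the second Crx-/- sample. Wdr17, Rp1l1, Rd3 and the ciliary transport gene Ttc21b were not called. Their 95% intervals were -0.30 to 0.08, -0.32 to 0.26, -0.17 to 0.53 and -0.09 to 0.54.

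Some genes stood below wild type in both mutants with no difference between the mutants that passed. Rdh12, a photoreceptor retinol dehydrogenase, was at 0.4 and 0.5 FPKM in CrxRip/Rip, 0.5 and 0.6 in Crx-/- and 2.7 and 2.9 in wild type, with a 95% interval of -0.35 to 0.16 between the mutants. Lrit1 was at 1.1 and 1.0, 1.3 and 1.4, and 4.6 and 6.2 in the same order (interval -0.47 to 0.08). Lrit2 was at 3.2 and 3.4, 2.8 and 3.1, and 6.3 and 6.2 (interval -0.09 to 0.34). Rp1l1 was at 3.1 and 2.9, 2.7 and 3.5, and 5.3 and 6.5. These 4 genes were each called lower against wild type in both mutants.

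Of 7 synaptic genes of photoreceptors 3 were called lower and 4 not called and a median of -0.35. Mpp4, a scaffold of the photoreceptor terminal, was at 0.6 and 0.7 FPKM against 1.5 and 1.7 (difference -0.66, adjusted p = 0.00062). The vesicular glutamate transporter Slc17a7 was at 2.7 and 2.7 against 3.9 and 3.7 (difference -0.38, adjusted p = 0.0095), and at 0.054 without the first Crx-/- sample. Stx3, the syntaxin of ribbon synapses, was at 5.8 and 6.0 against 8.5 and 10.5 (difference -0.60, adjusted p = 0.0080), and at 0.063 without the second Crx-/- sample. Besides Lrit1 and Lrit2, Elfn2 (adjusted p = 0.064, and 0.018 without the first CrxRip/Rip sample) and Syn2 (0.86) were not called; the 2 CrxRip/Rip samples of Syn2, at 3.4 and 1.4, lay on either side of both Crx-/- samples, at 2.1 and 2.0.

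Other large falls were in genes outside those lists. Cacna1h, a T-type calcium channel subunit, was at 8.4 and 8.2 FPKM against 28.4 and 37.6 in Crx-/-, with 24.7 and 26.6 in wild type (difference -1.86, adjusted p = 3.0e-05). 3 genes were lower in CrxRip/Rip and higher in Crx-/- than in wild type, each called both ways, besides Pde6c. These were the semaphorin Sema7a, at 3.9 and 3.8 against 12.3 and 14.0 with 7.9 and 9.2 in wild type (difference between mutants -1.54), Pcare, an actin regulator of disc formation, at 2.8 and 3.3 against 6.9 and 8.7 with 4.4 and 5.7 (difference -1.11), and Paqr3, at 4.1 and 3.8 against 9.4 and 8.9 with 6.0 and 6.1 (difference -1.04). Ppef2, a phosphatase of photoreceptors chosen after its values were seen, was at 3.7 and 4.9 against 15.7 and 16.9 (difference -1.72).

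The 103 rises differed in where the mutants stood against wild type. In 48 only Crx-/- was called, lower than wild type, and in 34 neither mutant was called. CrxRip/Rip was called higher than wild type in 18, of which 10 were not called in Crx-/-, 5 were higher there too and 3 were lower. Both mutants were lower than wild type in Ankrd33, Tmem215 and Cox6b2. Under a median-of-ratios scaling of the comparisons with wild type the 48 became 20 and the 34 became 58. Among the genes above wild type in CrxRip/Rip, Slitrk6, a neuronal transmembrane protein on the bipolar list, was at 14.5 and 16.7 FPKM in CrxRip/Rip, 5.4 and 5.5 in Crx-/- and 4.7 and 4.0 in wild type (difference between mutants 1.36, SE 0.10, adjusted p = 3.0e-05). Acbd7, an acyl-CoA binding protein, was at 5.2 and 6.2, 1.5 and 1.7, and 0.7 and 0.5 in that order (difference 1.36, adjusted p = 0.00012). The interleukin 11 receptor subunit Il11ra1 was at 6.4 and 5.7 against 2.1 and 2.6 (difference 1.08), and the galactosyltransferase B3galt2 at 7.9 and 8.5 against 3.6 and 3.6 (difference 1.00). Lmo2, a LIM-domain regulator on the progenitor list, was at 10.9 and 8.9 against 4.9 and 4.7 (difference 0.90), with 2.0 and 2.0 in wild type. Trhde, a peptidase that degrades thyrotropin-releasing hormone, was at 2.6 and 2.6 against 1.1 and 1.2 (difference 0.74). In these 6 genes, picked among those called higher, every CrxRip/Rip sample lay above every Crx-/- and wild-type sample. The share of all genes with that order is not given here.

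In the next 6 genes CrxRip/Rip was not called against wild type and Crx-/- was called lower. Hddc3, which encodes an HD-domain phosphohydrolase, was at 22.9 and 29.3 FPKM in CrxRip/Rip, 10.3 and 8.8 in Crx-/- and 19.9 and 22.9 in wild type (difference between mutants 1.35, adjusted p = 0.00018). The glutamine transporter Slc1a5 was at 7.5 and 5.9 against 2.3 and 2.1 (difference 1.26), and Tnfsf9, a ligand of the tumour necrosis factor family, at 8.1 and 6.2 against 2.8 and 2.7 (difference 1.11). Htra1, a secreted serine protease, was at 19.3 and 20.0 against 8.4 and 10.3 (difference 1.00), A530054K11Rik at 7.3 and 7.3 against 3.6 and 2.7 (difference 1.01), and L3hypdh at 6.6 and 7.1 against 2.7 and 2.5 (difference 1.12). Ano3 had the largest fitted rise, 2.31, from 5.4 and 5.0 against 0.3 and 0.2, but the 2 wild-type samples were at 4.5 and 0.2 and neither mutant was called against them. Its adjusted p was 0.027 with every sample and 0.054 to 0.12 without each of the 4 in turn.

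A further 6 genes were chosen after their values were seen and moved in both directions. The cystine transporter Slc7a11 was at 3.9 and 4.2 FPKM in CrxRip/Rip, 0.6 and 0.5 in Crx-/- and 3.8 and 3.2 in wild type (difference between mutants 1.70, adjusted p = 1.5e-05). Cth, which makes cysteine from cystathionine, was at 8.6 and 8.4 against 4.9 and 4.5 (difference 0.74), and the glutathione transferase Gsta4 at 11.7 and 14.4 against 5.7 and 6.4 (difference 0.99). Another glutathione transferase, Gstm6, was lower, at 0.9 and 0.3 against 2.5 and 2.4 (difference -1.13, adjusted p = 0.0015). Hmox1, heme oxygenase 1, was lower too, at 2.1 and 3.2 against 5.0 and 5.7 (difference -0.81, adjusted p = 0.0032, and 0.053 with these 2 genotypes alone), as did metallothionein Mt2, at 0.8 and 0.7 against 1.5 and 1.8 (difference -0.60). For these 6 genes CrxRip/Rip was not called against wild type and Crx-/- was. A second metallothionein, Mt1, also named after its values were seen, was not called between the mutants. It was at 4.4 and 4.0 FPKM in CrxRip/Rip and at 3.7 and 5.8 in Crx-/- (difference -0.12, adjusted p = 0.56).

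Genes of chromosome 7, which carries Crx, included the second largest fall of the table and several rises near Crx. Crx lies at chr7:15865947-15879955 (GRCm38) and Obox6, an oocyte homeobox gene, ends 26.3 kb before it. Obox6 was at 0.1 and 0.2 FPKM in CrxRip/Rip, 0.3 and 0.3 in wild type and 7.8 and 8.4 in Crx-/- (difference -2.98, SE 0.13, adjusted p = 3.5e-06), with Crx-/- alone high. Of the 566 genes 58 were on chromosome 7, and 32 of these (55.2%) were called, 13 lower and 19 higher. On all other chromosomes together 39.6% of 507 genes were called, 16.4% higher. Taken singly, the other chromosomes ran from 22.2% called (chromosome 14) to 57.9% (chromosome 13), and chromosome 19 was at 56.25%, so chromosome 7 was within their range. Within 30 Mb of Crx 9 of 38 genes were called lower and 14 (36.8%) higher, and both counts were smaller without the second Crx-/- sample. Of the 20 chromosome 7 genes farther away, 4 were called lower and 5 (25.0%) higher. The 30 Mb limit was chosen after the positions were seen.

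Besides Slc1a5, the nearby rises included Hif3a, a hypoxia-inducible factor subunit, at 3.3 and 3.1 FPKM against 1.1 and 1.2 (difference 0.97), Ltbp4, a matrix protein that binds latent TGF-beta, at 4.4 and 5.5 against 2.3 and 2.2 (difference 0.87), and Zfp111, at 4.2 and 4.3 against 2.0 and 2.0 (difference 0.81). These 3 were called higher than wild type in CrxRip/Rip and lower than wild type in Crx-/-. Zfp658 was at 6.4 and 6.3 against 2.3 and 2.3 (difference 1.16, adjusted p = 0.0086), with uneven wild-type samples at 7.0 and 3.1. Without the second Crx-/- sample its adjusted p was 0.051. Zinc finger genes were 33 in the table by gene name, 15 of them called higher and 3 lower. Over all 566 genes, 18.2% were called higher and 23.1% lower. Among the 13 zinc finger genes on chromosome 7, 8 were called higher, as were 32.8% of all 58 genes there. The zinc finger counts are from the fit to all 10 samples only. With the 2 genotypes alone in the fit, higher calls over all genes were 42 rather than 103. DNA linked to the targeted Crx allele and retained from another strain was not tested, and it cannot be told apart from the genotype here.

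**Figure D4:**
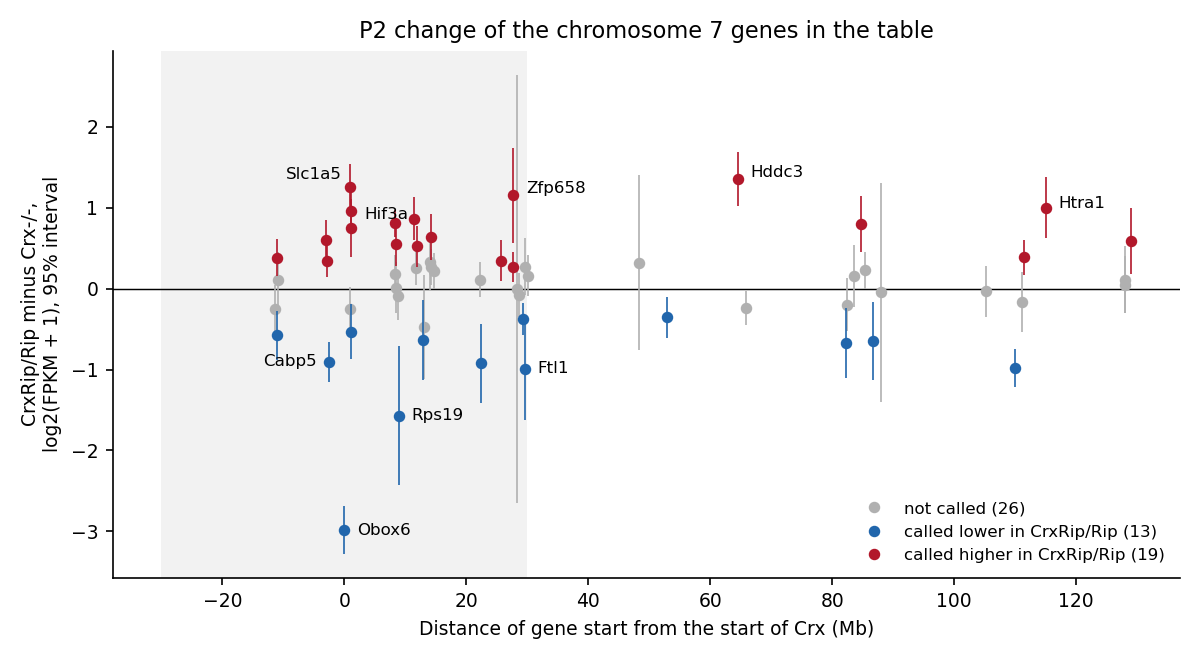
Difference at P2 between CrxRip/Rip and Crx-/- (points, log2(FPKM + 1)) with its 95% interval for the 58 chromosome 7 genes of the table, by distance of the gene start from the start of Crx in Mb; the shaded band is 30 Mb to each side. Obox6, next to Crx, has the lowest value, and 14 called rises lie in the band.

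Genes of other retinal cells were few in the table. None of the horizontal cell, cell cycle or lens lists was in it. Of 8 bipolar genes 2 were called higher and 3 lower, as were 18.2% and 23.1% of all genes of the table, and 8 genes are too few to set these shares apart. Besides Slitrk6, Tmem215 was at 0.9 and 1.3 FPKM against 0.2 and 0.1 (difference 0.86), at an adjusted p of 0.022 that became 0.062 to 0.11 without the second CrxRip/Rip sample or either Crx-/- sample. Cabp5, a calcium-binding protein of bipolar cells, was at 0.2 and 0.2 against 1.4 and 1.1 (difference -0.90), and Pcp2 at 1.3 and 1.3 against 2.3 and 2.7 (difference -0.60), at an adjusted p of 0.0064 that was 0.052 without the second Crx-/- sample. The amacrine gene Tac1 and the ganglion cell gene Pou4f3 were not called.

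All 3 progenitor genes of the table were called higher, as were 18.2% of all its genes. Besides Lmo2 these were Fgf15, a growth factor of progenitors, at 42.0 and 39.0 FPKM against 30.8 and 23.0 (difference 0.59, adjusted p = 0.029), and Btg2, a gene of the last progenitor division, at 101.8 and 97.0 against 76.4 and 76.8 (difference 0.37, adjusted p = 0.035). The list has 39 genes. Both were sensitive to single samples: Fgf15 was at 0.10 without the first CrxRip/Rip sample and 0.19 without the second Crx-/- sample, and Btg2 was at 0.059 to 0.13 without each of the 4. Of 4 immediate early genes, which respond quickly to stimulation, Egr1 was called lower, at 0.7 and 0.7 FPKM against 2.9 and 2.1 (difference -1.03), Btg2 was called higher and 2 were not called. Jun was at 18.8 and 11.1 against 10.2 and 7.9 (difference 0.63, adjusted p = 0.060), and passed at 0.99 (0.0048) without the second CrxRip/Rip sample and at 0.048 with a replicate block. Nr4a2 was at 4.2 and 2.4 against 2.9 and 2.6 (difference 0.17), and at 0.47 (0.033) without the second CrxRip/Rip sample and -0.14 (0.47) without the first. Transthyretin, Ttr, a gene of the pigment epithelium list that is also counted in the photoreceptor lists, was at 2.2 and 1.9 against 4.9 and 6.7 (difference -1.15). Without the second Crx-/- sample the difference of Ttr was -0.95 and it lost the call. The pigment gene Tyrp1 was not called (0.33, and 0.58 at an adjusted p of 0.018 without the first CrxRip/Rip sample), and neither were the vessel gene Rgs5 (-0.21, and -0.71 at 0.041 without the second CrxRip/Rip sample) and the blood gene Hbb-bs. Gfap, the filament of reactive glia, was at 6.4 and 3.7 against 6.5 and 14.8 and was not called.

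At P21 the same pair of genotypes differed in the same direction for most shared genes that were called at P2. The P21 table holds 1497 genes, of which 799 (53.4%) were called, 508 lower (33.9%) and 291 higher (19.4%), and 198 genes were in both tables. Under a median-of-ratios scaling the P21 split was 391 lower and 406 higher, and 60 of the shared genes lower at P2 were lower at P21 and 13 of those higher at P2 were higher. Among these 198, 44.9% were called lower at P21 and 19.2% higher. The P21 median over the shared genes was -0.36. Of the 103 shared genes lower at P2, 66 were lower at P21, 28 not called and 9 higher, with a P21 median of -0.80. Of the 24 higher at P2, 12 were higher at P21, 9 not called and 3 lower, with a P21 median of 0.37. The ages were not tested against each other, and both tables were selected for change.

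Rod regulators that were lower at P2 were at or near 0 in CrxRip/Rip at P21. Nrl was at 0.1 and 0.2 FPKM in CrxRip/Rip and at 87.2 and 82.0 in Crx-/- (P21 difference -6.22, adjusted p = 2.6e-08), and Nr2e3 was listed at 0 in both CrxRip/Rip samples against 118.0 and 110.0. Samd7 was at 0.0 and 0.1 against 146.2 and 132.6, so the P2 contrast was also present at P21. Ankrd33 was at 52.9 and 71.7 in CrxRip/Rip and at 2.8 and 2.2 in Crx-/- (P21 difference 4.17), with 78.2 and 71.2 in wild type. Its rise over Crx-/- was therefore seen at both ages. Acbd7 was at 28.8 and 25.6 against 1.1 and 0.9, and Slitrk6 at 45.2 and 39.5 against 12.9 and 12.2.

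Several photoreceptor falls of P2 were not called at P21. Rcvrn was at 4.0 and 9.8 FPKM against 7.5 and 7.0 (P21 difference -0.17), Gngt1 at 137.7 and 149.7 against 146.6 and 128.7 (0.06), Reep6 at 7.1 and 7.2 against 7.7 and 7.7 (-0.09), and Pde6c at 73.1 and 46.1 against 45.2 and 44.8 (0.36). Gnat2 stayed lower, at 88.3 and 94.3 against 131.8 and 121.8 (-0.47), and Gnb3 at 108.8 and 144.0 against 364.6 and 312.0 (-1.42). Obox6 was at 0.4 and 0.5 against 23.0 and 21.0 at P21, again high in Crx-/- alone.

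**Figure D5:**
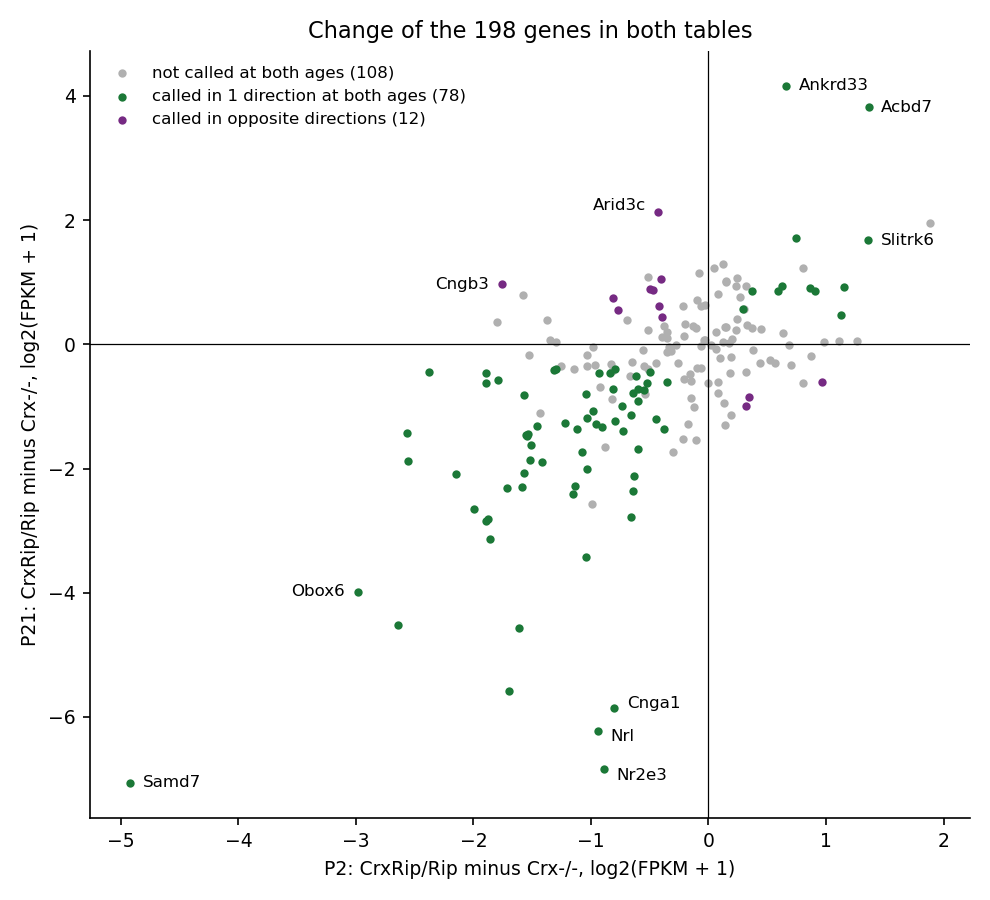
Difference between CrxRip/Rip and Crx-/- at P2 (x axis) and P21 (y axis), both on the log2(FPKM + 1) scale, for the 198 genes in both tables. 78 genes were called in 1 direction at both ages, with Samd7, Nrl, Nr2e3 and Cnga1 lowest at P21, and 12 were called in opposite directions.

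The authors' own calls for this comparison were fewer, under a fold limit that the limma calls did not have. In all, 118 genes (20.8%) in the authors' deposited table had an adjusted p under 0.05 together with a log2 fold change whose size reached 1, 81 lower and 37 higher. Of these 107 were among the 234 limma calls, and none of the 107 had the opposite direction. The 127 genes called here alone all had differences under 1 in size, and 72 of them had an authors' adjusted p under 0.05. The remaining 11 of the authors' genes did not pass here, and they were named after their values were seen. Gja1 was at 1.9 and 12.2 FPKM in the CrxRip/Rip samples against 2.3 and 2.8, Gm5506 at 0.2 and 24.4 against 0.4 and 0.6, Ifi203 at 5.3 and 0.3 against 0.0 and 0.1, Mndal at 6.9 and 1.3 against 0.4 and 0.3, Klhl33 at 5.3 and 1.4 against 1.6 and 1.2, and Trpm1 at 0.4 and 3.9 against 1.0 and 1.2. In each of these 6 the CrxRip/Rip samples differed from each other by more than the Crx-/- samples did. Trpm1 was at 1.22 (adjusted p = 0.00064) without the first CrxRip/Rip sample and at -0.58 (0.029) without the second, and Gja1 at 1.90 (0.00018) and -0.29 (0.21). Mndal was at 2.55 (0.017) and Ifi203 at 2.59 (0.010) without the second. The others were Slc6a2, Hdhd3, Mmp2, Egfr and Gfap, with adjusted p between 0.053 and 0.18. Without the second Crx-/- sample Mmp2 passed at -1.36 (0.00071) and Slc6a2 at -0.93 (0.0072), and Egfr passed without the second CrxRip/Rip sample at -1.36 (0.0061).

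Genes with near-identical copies elsewhere in the genome are uncertain, since reads can be assigned to either copy. Of the 3 in the table from the list of such genes, Rpl21 (difference -0.04) and Hmgb1 (-0.12) were not called and Ftl1 was called lower. Ftl1 was at 83.8 and 75.0 FPKM against 159.1 and 157.2 (difference -0.99, adjusted p = 0.023), at 0.060 to 0.092 without the second CrxRip/Rip sample or either Crx-/- sample. The ribosomal protein genes Rps3a1 and Rpl29, which are not on that list, had uneven CrxRip/Rip samples. Rps3a1 was at 4.0 and 121.8 FPKM in the CrxRip/Rip samples and at 121.7 and 122.6 in Crx-/-, and was not called (95% interval -5.09 to 0.47, and -4.62 at an adjusted p of 0.00014 without the second CrxRip/Rip sample). Rpl29 was at 1.3 and 17.4 against 39.2 and 35.3 (difference -2.55, adjusted p = 0.029), and it was at 0.11 without either Crx-/- sample and at 0.16 with these 2 genotypes alone. A gap of at least 4 times between the 2 samples of a genotype, in genes reaching 5 FPKM, was found for 8 genes in CrxRip/Rip and 1 in Crx-/-.

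Besides Rps3a1, 5 abundant genes that were not called had narrower intervals. Chgb, a secretory granule protein, was at 166.7 and 167.0 FPKM in CrxRip/Rip and at 145.6 and 155.1 in Crx-/-, both above the 73.3 and 84.4 of wild type, with a 95% interval of -0.18 to 0.48 between the mutants. Glcci1 was at 79.2 and 65.2 against 58.6 and 50.5 (interval 0.04 to 0.75, adjusted p = 0.070, and 0.041 without the second CrxRip/Rip sample). The intervals of Psmb5, Dusp16 and Elovl2 were -0.82 to 0.17, -0.15 to 0.41 and -0.07 to 0.56.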

How the data were processed

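Whole-retina RNA of 5 genotypes at P2 and P21, 2 samples each, was sequenced from total RNA with directional libraries, per the labels' protocols. The deposited tables hold FPKM per sample, rounded by the authors to 1 decimal, a mean FPKM per genotype, and the authors' adjusted p-values and log2 fold changes, per the file headers. DESeq is named in the submitters' processing notes without a version, and the aligner, counter, genome build and annotation were not given in the sources used here. With FPKM there are no counts, so no count test, counting interval or depth could be given. Every row of both tables (566 at P2, 1497 at P21) had, in some comparison of the authors, an adjusted p under 0.05, a log2 fold of 1 or more in size and a genotype mean of 2 FPKM or more, so the tables are selected on outcome.

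limma 3.58.1 in R 4.3.3 was fitted to log2(FPKM + 1) over the 10 samples of an age, 1 term per genotype, with a variance trend and empirical Bayes moderation (5 residual and 2.95 prior degrees of freedom at P2), and it was tested on simulated data. P-values were two-sided and adjusted over the table; 4 comparisons were fitted. With 2 samples against 2, the smallest two-sided p of an exact permutation test is 0.33. Replicate numbers did not pair the samples (correlation of deviations -0.24 to 0.33 at P2). Transcript identifiers matched 563 P2 genes to RefSeq (GRCm38), symbols 2 more, and 1 had no match. 7 symbols that RefSeq does not list for their transcript were replaced.

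The members and the 22 gene lists were chosen with earlier results of these data known. Genes were named by a rule: all genes of the 7 photoreceptor lists, up to 4 called and 2 uncalled genes of each other list, the 12 largest called rises and falls where the genotypes do not overlap and one has a mean of 5 FPKM or more, genes at 0 in both samples of 1 genotype and at 2 FPKM or more in the other (no gene met it), the 8 largest of those called oppositely against wild type, the 6 most abundant uncalled genes, and up to 8 genes each way called at both ages. A few genes that the rule names are not reported here. The text says where others were chosen after their values were seen. The alternatives were a pseudocount of 0.1, a mean of at least 1 FPKM, 2 other scalings, no variance trend, the 2 genotypes alone, a replicate block and each sample left out; leaving out Nrl-/-, whose values stand apart, was added after seeing the data.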

Additional observations from a re-analysis of the deposited data

Results flagged for a closer look

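12 genes were called in opposite directions at P2 and P21 between CrxRip/Rip and Crx-/-, on the log2(FPKM + 1) scale. In each, the samples of the 2 genotypes did not overlap at either age. At P2 71.9% of all genes of the table had no overlap, and a call at both ages favours such an order, so it is no separate support. The difference between the ages was not tested. 9 were lower at P2 and higher at P21. The cone channel subunit Cngb3 went from -1.76 at P2 to 0.96 at P21, where CrxRip/Rip was at 29.6 and 22.5 FPKM, Crx-/- at 13.2 and 12.3 and wild type at 4.7 and 4.8. Sall3 went from -0.82 to 0.75 and Gm11744 from -0.77 to 0.56. Abca4 went from -0.40 to 0.45, Sptb from -0.50 to 0.90, Nrn1l from -0.47 to 0.88, Slc24a4 from -0.43 to 0.62 and Samsn1 from -0.40 to 1.06. Arid3c went from -0.43 to 2.14, with CrxRip/Rip at 13.7 and 7.9 FPKM, Crx-/- at 1.7 and 1.5 and wild type at 0.2 and 0.3 at P21. 3 were higher at P2 and lower at P21. Hif3a went from 0.97 to -0.60, Zfp488 from 0.32 to -1.0 and Apobec2 from 0.34 to -0.84. Among the 12, Sptb, Nrn1l, Arid3c, Slc24a4, Samsn1, Abca4, Zfp488 and Apobec2 each lost the P2 call without at least 1 sample.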

How the results depend on the processing

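With a pseudocount of 0.1, a mean of at least 1 FPKM, either other scaling, no variance trend or no Nrl-/- samples, CrxRip/Rip against Crx-/- at P2 gave 217 to 236 calls beside 234. With the 2 genotypes alone it gave 133, and without 1 sample 136 to 235. Without 1 sample, Crx-/- against wild type gave 72 to 92 calls beside 169, CrxRip/Rip against wild type 131 to 187 beside 153, and P21 CrxRip/Rip against Crx-/- 573 to 785 beside 799. A median-of-ratios scaling moved the median by 0.16 for Crx-/- against wild type and changed its split from 52 higher and 117 lower to 86 and 57. At P21 it moved the median by 0.12 and changed the split of CrxRip/Rip against Crx-/- from 291 and 508 to 406 and 391. The replicate numbers did not pair the samples, and with a replicate block the P2 calls were 245, the P21 calls 807, and those against wild type 155 (CrxRip/Rip) and 203 (Crx-/-). Of the 89 called genes that the naming rule or the text gave, none changed direction in any alternative, and 26 lost their call in at least 1. With a pseudocount of 0.1 the difference of 25 of the 89 changed by over 1.5 times, each still called; that of Samd7 was -7.11. Rounding to 0.1 FPKM limits values below 1.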
